A study of Mus musculus with 144 samples.

Results

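The transcripts of 10 enzymes that make serine, pass its carbon to folate and turn methionine into methyl groups were followed in primary mouse hepatocytes during 120 h in culture with the dioxin TCDD, an agonist of the aryl hydrocarbon receptor (AHR), or DMSO vehicle. The genes were fixed by name: Phgdh, Psat1 and Psph of serine synthesis, Shmt1, Shmt2, Mthfd1 and Mthfd2 of the folate cycle, and Gnmt, Mat1a and Mat2a of the methionine cycle. All 10 were found among the 55359 genes of the count files and all 10 passed the filter on low counts in every comparison. RNA-Seq libraries fell into 36 groups of 4, each with its genotype label, its treatment and 1 of 9 harvests, which came at 2, 4 and 8 h, 12 and 24 h, and then daily from 48 to 120 h. Cells came from male mice aged 28 days and labelled either wild-type C57BL/6NCrl (WT) or strain Pkm-delta-DRE with genotype DRE-null (PkmΔDRE), whose whole body lacks a dioxin response element in an intron of Pkm, the pyruvate kinase gene. TCDD was given at 10 nM. No label states which libraries share a mouse or an isolation, so the p-values measure the spread between these libraries, which may be technical.

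On GRCm38, the build of the annotation used for names, the genes lie as follows. Phgdh spans chr3:98313170-98339990, Psat1 chr19:15904678-15947337 and Psph chr5:129765558-129787449, all on the minus strand. Shmt1 spans chr11:60788104-60811718, Shmt2 chr10:127517123-127522444 and Mthfd2 chr6:83305691-83325908 on the minus strand, and Mthfd1 chr12:76255298-76319803 on the plus strand. Gnmt spans chr17:46725664-46729168 and Mat2a chr6:72432799-72439558 on the minus strand, and Mat1a chr14:41105035-41124412 on the plus strand. Phgdh has a named pseudogene, Phgdh-ps1, which could take some of its reads.

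Serine is made from the glycolytic intermediate 3-phosphoglycerate by PHGDH, PSAT1 and PSPH in turn. SHMT1 in the cytosol and SHMT2 in mitochondria move a carbon unit from serine to tetrahydrofolate and leave glycine, and MTHFD1 and MTHFD2 convert the loaded folates to other oxidation states. In the methionine cycle MAT1A, the methionine adenosyltransferase of adult hepatocytes, and MAT2A, that of most other and of dividing cells, make S-adenosylmethionine. GNMT, an abundant liver enzyme, uses up S-adenosylmethionine by methylating glycine. Serine synthesis is low in adult liver fed a normal diet, and a shift from Mat1a to Mat2a is well known in dedifferentiating hepatocytes.

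A few libraries stood apart, and several results that rest on them are given with and without them. Replicate numbers here follow the order of deposit and were not used to pair libraries. Each library was compared with all others over 13501 genes, the 10 enzymes left out, by the mean Pearson correlation of log2 (CPM + 1), where CPM, the usual library-scaled count, is relative to the library's total of read pairs on genes. In all other CPM values that total was first scaled by the TMM factors of edgeR, set over all libraries, which adjust for differences in composition. PkmΔDRE vehicle replicate 4 at 4 h was nearest to the 96 h libraries (r = 0.957) and less near to its own hour (r = 0.797). PkmΔDRE vehicle replicate 4 at 96 h was nearest to the 4 h libraries (r = 0.957, against 0.797 for its own hour). Both go against their hour labels, were left where the labels put them, and are called the crossed pair below. PkmΔDRE vehicle replicate 1 at 72 h was nearest to 120 h (r = 0.967, against 0.943). All other libraries were nearest to their own hour or to a neighbouring harvest.

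Treatment and genotype labels were checked on Cyp1a1, the classical AHR target, and on Pkm. Cyp1a1 was at 3285 CPM in WT vehicle replicate 1 at 48 h and at 1717 CPM in WT vehicle replicate 3 at 96 h. It was at 29.2 CPM in WT TCDD replicate 4 at 72 h and at 1.15 CPM in WT TCDD replicate 4 at 2 h. Apart from these, vehicle libraries from 8 h on held at most 270.0 CPM and TCDD libraries at least 1650.0 CPM. In WT TCDD replicate 1 at 96 h, 63.3% of the stranded assignments fell to 1 strand, against 50.3% to 51.5% in the others. Pkm under the label PkmΔDRE at 8 h was at 54.9 ± 19.2 CPM in vehicle and 129.7 ± 27.2 CPM with TCDD (SD, n = 4 each), with no overlap (log2 1.24 ± 0.23, adjusted p = 0.13). Under the label WT it was at 62.4 ± 16.5 and 45.6 ± 14.5 CPM (log2 -0.49 ± 0.25, adjusted p = 0.12). The Pkm difference under PkmΔDRE was 1.68 ± 0.26 at 12 h, 1.34 ± 0.39 at 24 h and 0.97 ± 0.28 at 48 h (adjusted p = 0.13, 1.0 and 0.28), beside 0.17 ± 0.38, 0.01 ± 0.56 and -0.03 ± 0.62 under WT. At 96 h Pkm was called lower under WT (-0.73 ± 0.14, adjusted p = 0.0038). Pkm was thus higher with TCDD under the label of the deletion and not under WT from 8 to 48 h, differences that did not pass the test, which goes against the genotype labels. Whether the labels of the genotypes are exchanged was not tested. If they were, each value given under one label would belong to the other genotype and the sign of the difference between labels would turn, so groups are named by their labels only. Each library had 13588848 to 30719161 read pairs on genes (median 18011825).

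The stretch just before a RefSeq start of the gene is shown for 4 of the enzymes, since TCDD acts through AHR, whose core binding motif is GCGTG. RefSeq windows on GRCm38.p6 were found for 9 of the 10 genes, all but Mat1a. RefSeq starts can differ from the bounds of the gene spans given above. The windows of Shmt1, Mthfd2 and Psat1 lie wholly inside those spans, whose upper bounds are 60811718, 83325908 and 15947337. The bases before those bounds were not searched. The 250 bases before the start are printed from 5′ to 3′ on the gene's strand, with each GCGTG, or CACGC where the motif lies on the other strand, in capitals. Phgdh, Shmt1 and Gnmt are genes called lower with TCDD in at least 1 comparison whose window holds the motif, and Mthfd2 is such a gene without it.
Phgdh (chr3:98339970-98340219, minus strand): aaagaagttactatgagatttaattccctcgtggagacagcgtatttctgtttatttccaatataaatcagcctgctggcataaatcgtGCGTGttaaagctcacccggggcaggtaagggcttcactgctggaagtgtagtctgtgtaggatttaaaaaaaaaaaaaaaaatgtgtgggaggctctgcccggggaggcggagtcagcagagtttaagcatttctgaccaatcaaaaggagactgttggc
Shmt1 (chr11:60811266-60811515, minus strand): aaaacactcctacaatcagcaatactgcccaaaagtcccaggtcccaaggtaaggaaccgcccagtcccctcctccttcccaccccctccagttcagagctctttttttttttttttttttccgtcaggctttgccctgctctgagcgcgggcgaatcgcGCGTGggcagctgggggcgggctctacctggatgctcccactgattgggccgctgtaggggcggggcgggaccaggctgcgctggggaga
Gnmt (chr17:46729166-46729415, minus strand): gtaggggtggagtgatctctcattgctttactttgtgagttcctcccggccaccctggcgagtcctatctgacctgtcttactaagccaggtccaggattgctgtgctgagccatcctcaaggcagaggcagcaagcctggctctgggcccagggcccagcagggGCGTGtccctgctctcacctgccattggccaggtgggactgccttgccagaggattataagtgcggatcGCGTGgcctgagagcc
Mthfd2 (chr6:83317605-83317854, minus strand): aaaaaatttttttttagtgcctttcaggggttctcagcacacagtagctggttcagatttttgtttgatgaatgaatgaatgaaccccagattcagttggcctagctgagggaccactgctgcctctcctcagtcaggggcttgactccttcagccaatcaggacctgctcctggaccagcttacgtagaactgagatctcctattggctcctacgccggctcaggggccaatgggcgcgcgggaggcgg
The motif begins 161 bases before the start in Phgdh, 90 bases before it in Shmt1, and 85 and 16 bases before it in Gnmt. It was found in the windows of 7 of the 9 genes, Shmt2 and Mthfd2 being without it, and in 28.2% of all 32851 windows of this length. Psat1 had 2 windows, both with the motif, so the count of genes and the share of windows differ in unit. TTGCATCA, a form of the element that binds ATF4 in amino acid response genes, was in none of the 9 and in 0.791% of all windows. A match in these letters is a description of the sequence.

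In vehicle culture the genes parted by role: the first enzyme of serine synthesis rose from a low level, 3 of the 4 folate enzymes fell about 4-fold or more and Mthfd2 less, and Gnmt and Mat1a of the methionine cycle fell to a small remainder. At 120 h against 2 h, 8 of 10 were called under each label (adjusted p under 0.05 and at least 1.5-fold), 1 higher and 7 lower. The background was high, since 57.9% of all genes tested were called under the label WT and 49.4% under PkmΔDRE at this hour, 24.5% and 22.7% as lower. With 8, 24 and 72 h included, all set against the same 2 h libraries, 27 of 40 gene-hour pairs were called under the label WT and 25 of 40 under PkmΔDRE. The calls at 8 h were 6 and 3 (background 31.9% and 11%), at 24 h 6 and 6 (45.8% and 33.2%) and at 72 h 7 and 8 (53.8% and 42.3%). Without the crossed pair the PkmΔDRE count was 29 of 40, with backgrounds of 17.4%, 36.2%, 44% and 50.5% in order of time, a setting chosen after seeing the data.

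**Figure D1:**
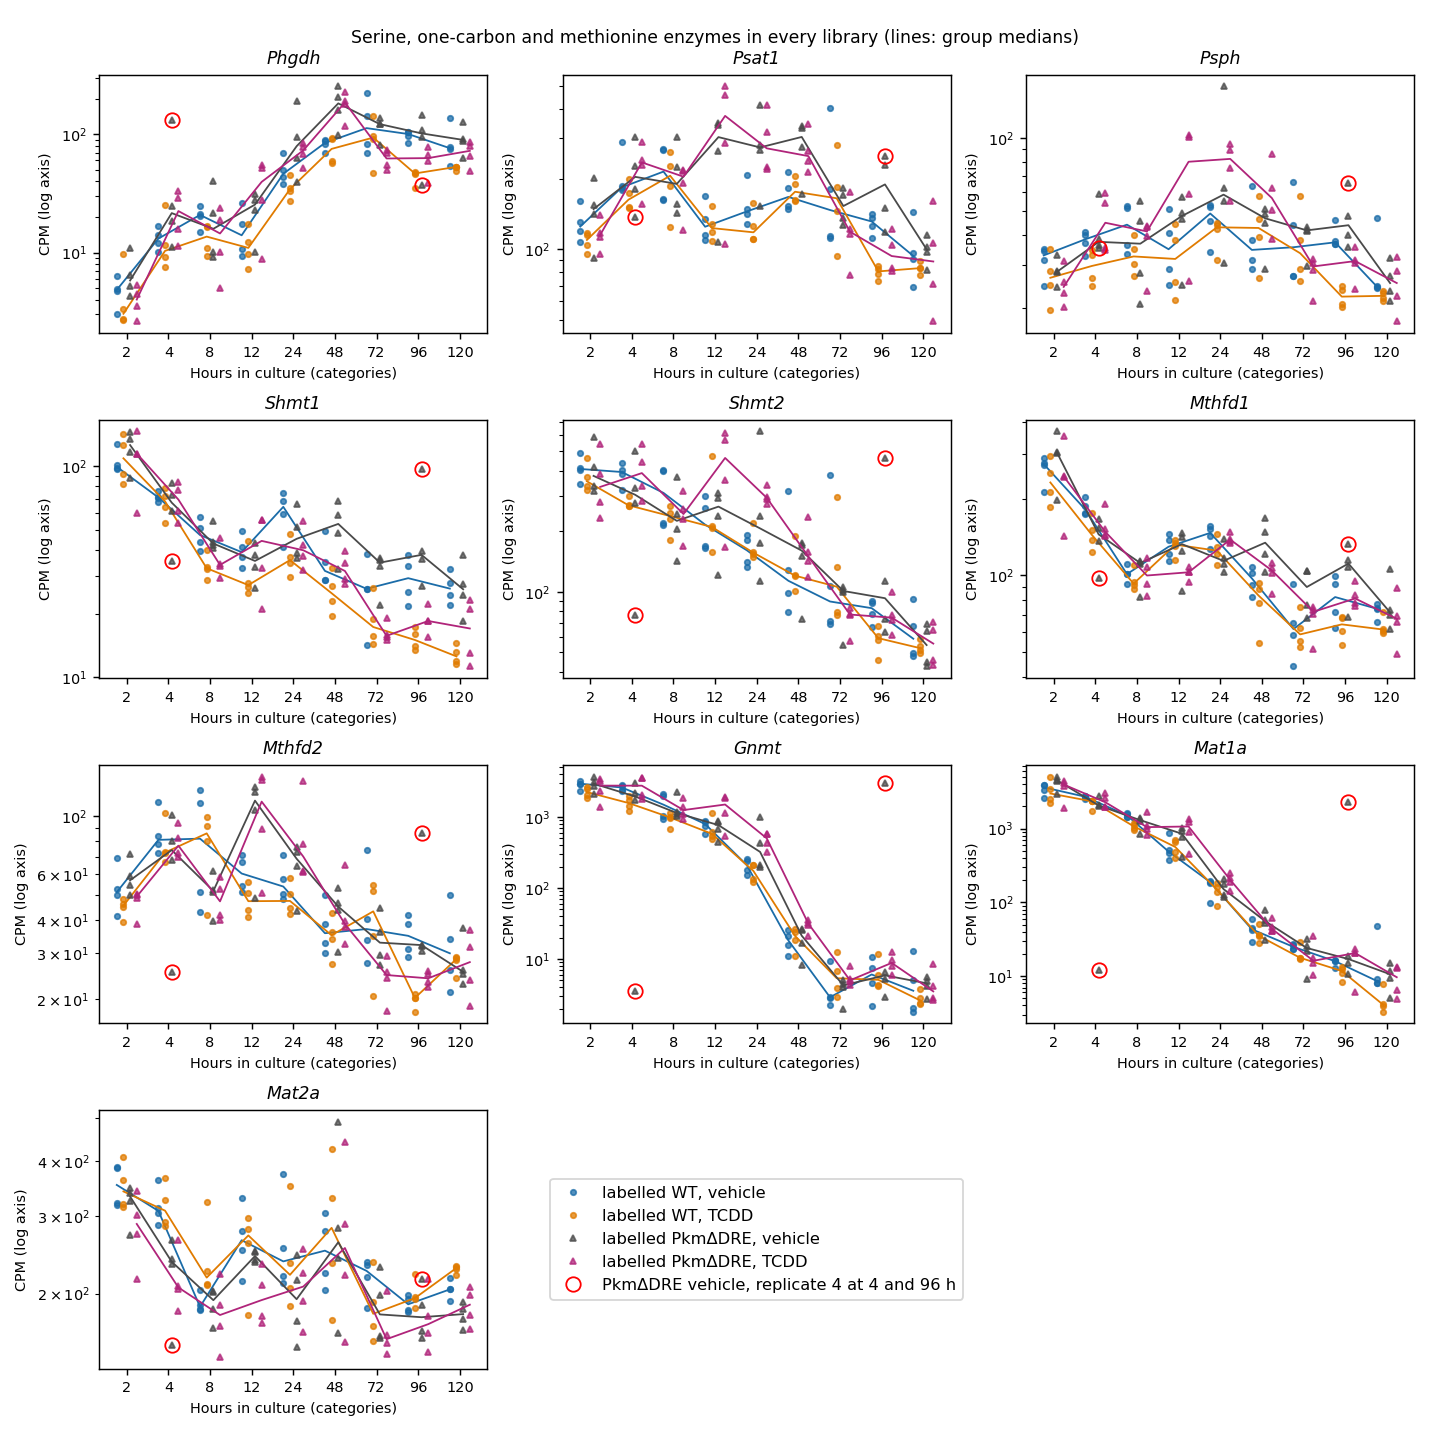
CPM (log axis) of each enzyme in every library against hours in culture, set as categories, with circles for the label WT and triangles for PkmΔDRE, vehicle and TCDD in separate colours, and lines through group medians. Gnmt and Mat1a go from 2309 CPM or more at 2 h to 47.8 CPM or less at 120 h in WT vehicle and Phgdh climbs, while for both genes the ringed crossed pair lies apart from its groups.

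Gnmt showed the deepest fall. Under the label WT the 4 vehicle libraries at 2 h held 2309, 2914, 2951 and 3245 CPM. At 72 h they held 2.28, 2.86, 2.92 and 9.35 CPM, and at 120 h 1.81, 2.07, 5.07 and 12.8 CPM. The 2 h libraries did not overlap those of 72 or 120 h, while these later hours overlapped each other. The fall was still shallow at 8 h (1503 ± 602 CPM, SD, n = 4), with 762 ± 136.8 CPM left after 12 h and 18.3 ± 6.32 CPM after 48 h. Gnmt fell by 9.21 ± 0.63 (SE) on the log2 scale at 120 h under WT (adjusted p = 6.1e-14) and by 9.60 ± 1.74 under PkmΔDRE (adjusted p = 6.1e-05). Without the crossed pair the PkmΔDRE value was -9.61 ± 0.59. Of the crossed pair, the library labelled 4 h held 3.59 CPM beside 1732, 2142 and 2984 CPM in the other libraries of its group. The library labelled 96 h held 3034 CPM beside 2.89, 5.22 and 6.53 CPM.

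Mat1a had fallen by 8 h. Its WT vehicle libraries held 2585, 3375, 3895 and 3957 CPM at 2 h, 1428, 1450, 1570 and 1615 CPM at 8 h, and 8.00, 8.07, 9.14 and 47.8 CPM at 120 h. The last of these, replicate 2, was the only one above 10 CPM at that hour. Its log2 change under WT was -1.18 ± 0.37 after 8 h and -7.73 ± 0.49 after 120 h (adjusted p = 0.012 and 9.6e-15). Under PkmΔDRE it fell by 8.89 ± 1.44 at 120 h (adjusted p = 1.7e-05), and without the crossed pair the value was -8.89 ± 0.50. At 8 h its difference there was -1.85 ± 1.05 (adjusted p = 0.27), and without the crossed pair it was -1.83 ± 0.36 and passed the test (adjusted p = 0.00048).

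Mat2a moved far less than its sister gene. It went from 352.3 ± 38.99 CPM at 2 h to 204.4 ± 10.2 CPM at 120 h under WT, a fall of 0.95 ± 0.15 on the log2 scale (adjusted p = 2.2e-06), and fell by 1.03 ± 0.25 under PkmΔDRE (adjusted p = 0.0012). Per exon base the order of the pair turned over in culture. The Mat1a to Mat2a ratio of CPM per exon base in WT vehicle libraries had a median of 13.2 after 2 h (10.6 to 13.6), of 1.05 after 24 h (0.339 to 1.13) and of 0.0545 after 120 h (0.0477 to 0.322). In PkmΔDRE vehicle libraries the medians were 17.9, 1.11 and 0.0766 at these hours. The medians were thus nearest to 1 at 24 h among these hours under both labels. Of the exon bases of Mat2a 11.3% are shared with Particl, and reads there could belong to either gene.

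**Figure D2:**
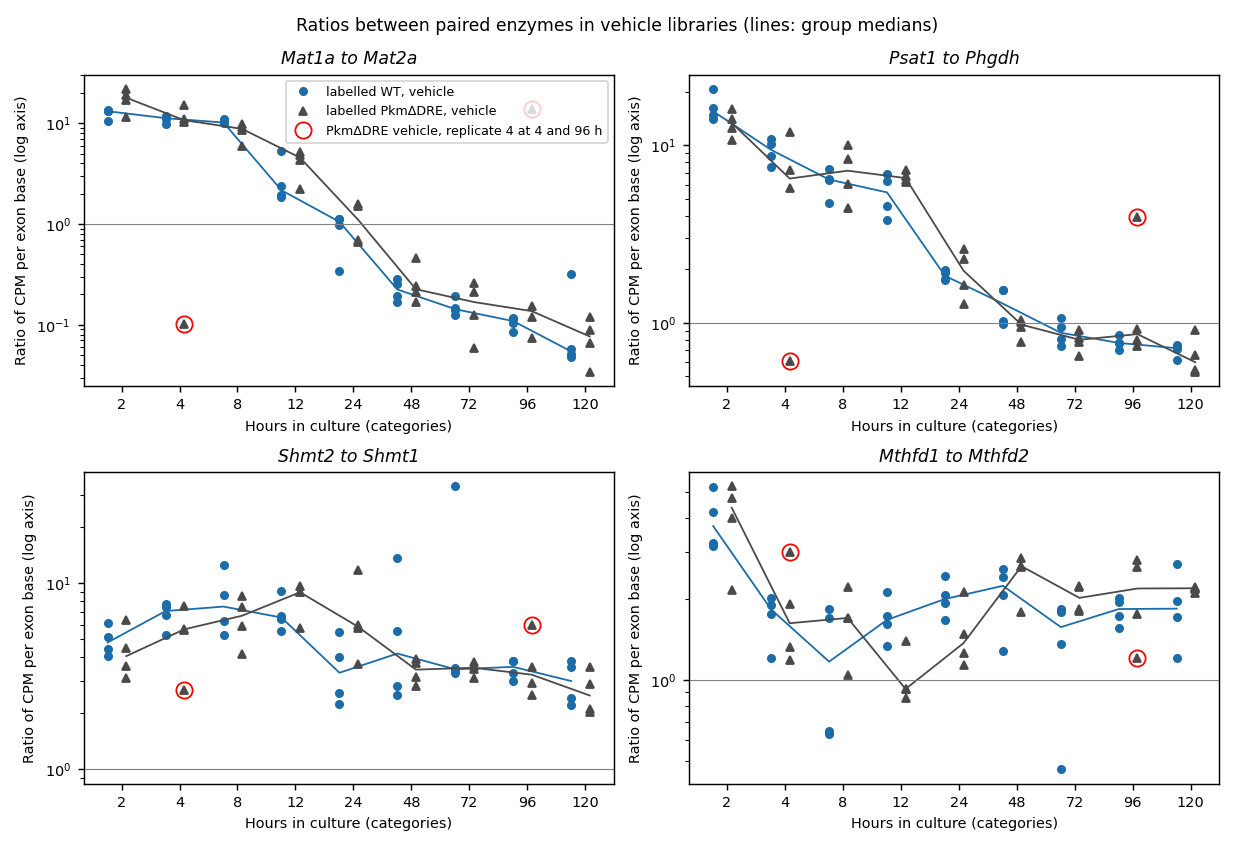
Ratios of CPM per exon base (log axis) between paired enzymes in each vehicle library against hours in culture, set as categories, with circles for the label WT, triangles for PkmΔDRE and lines through group medians. The Mat1a to Mat2a and Psat1 to Phgdh ratios fall from above 10 to below 1, while the ratio of the mitochondrial Shmt2 to the cytosolic Shmt1 has a median above 2 at every hour.

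Phgdh was the enzyme that was higher at 120 h under both labels. Its WT vehicle libraries held 3.03, 4.74, 4.94 and 6.34 CPM at 2 h and 14.8, 20.4, 21.2 and 24.6 CPM at 8 h, with no overlap. At 72 h they held 68.9, 82.4, 142.6 and 222.8 CPM, the highest being replicate 3. On the log2 scale Phgdh rose under WT by 2.08 ± 0.34 (8 h), 4.56 ± 0.37 (72 h) and 3.98 ± 0.36 (120 h) (adjusted p = 1.2e-05, 3.4e-12 and 3.5e-11). Under PkmΔDRE it rose by 3.94 ± 0.62 at 72 h and 3.61 ± 0.61 at 120 h (adjusted p = 2.5e-05 and 3.0e-05). Its difference at 8 h was 1.57 ± 0.57 (adjusted p = 0.073), and 1.60 ± 0.45 without the crossed pair (adjusted p = 0.011). The library of the crossed pair labelled 4 h held 132.8 CPM, where the other libraries of the group held 11.1, 18.5 and 24.5 CPM.

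The other steps of serine synthesis did not follow Phgdh. Psat1 stood at 129.9 ± 23.07 CPM after 2 h under WT, at 215.4 ± 60.1 CPM after 8 h and at 100.1 ± 31.8 CPM after 120 h. Its rise of 0.74 ± 0.29 at 8 h was called (adjusted p = 0.043), but not with DESeq2, with RLE scaling, without the filter or without the WT vehicle libraries high in Cyp1a1. Psph was at 31.3 ± 4.67 CPM at 2 h and 29.97 ± 11.1 CPM at 120 h, and no WT contrast was called. Under PkmΔDRE Psph rose by 1.29 ± 0.35 at 24 h (adjusted p = 0.0058), where replicate 1 was at 163.6 CPM beside 30.5, 54.98 and 62.05 CPM. Without that library the value was 0.66 and no longer called. The count of Psph also carries the reservation that 10.4% of its exon bases are shared with Cct6a. The Psat1 to Phgdh ratio per exon base had a median of 15.5 at 2 h (14.1 to 20.8) and 0.719 at 120 h (0.621 to 0.746) in WT vehicle libraries.

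All 4 folate enzymes were lower at 120 h than at 2 h under both labels. Shmt1 fell from 105.4 ± 14.5 to 26.8 ± 4.575 CPM under WT, by 2.14 ± 0.23 on the log2 scale (adjusted p = 1.6e-09), and by 2.35 ± 0.34 under PkmΔDRE (adjusted p = 5.6e-06). Shmt2 fell from 413.1 ± 60.4 to 64.2 ± 20.5 CPM, by 2.86 ± 0.42 and 3.12 ± 0.58 (adjusted p = 7.3e-07 and 8.9e-05). Mthfd1, the cytosolic enzyme, was already 1.36 ± 0.16 lower at 8 h under WT (adjusted p = 7.5e-08). It fell by 2.02 ± 0.17 and 2.12 ± 0.27 at 120 h (adjusted p = 4.0e-12 and 9.5e-07). Mthfd2, the mitochondrial enzyme of proliferating and embryonic cells, fell the least of the 4, by 0.87 ± 0.30 and 1.26 ± 0.36 (adjusted p = 0.011 and 0.0051). With the share of pairs outside genes as a covariate the Mthfd2 values were -0.27 and -0.56, and neither was called.

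With TCDD the calls were few and all were decreases. Under the label WT 7 of 90 gene-hour pairs were called, 5 of them at 96 h, and the TCDD value was below vehicle in 78 of the 90. Under PkmΔDRE 0 of 90 were called by edgeR, with 14 at an unadjusted p under 0.05 and 2 by DESeq2, and 60 of 90 values were below vehicle. Of the 14, 6 were at 96 h and 4 at 72 h, where 998 of 13866 and 1464 of 13621 genes tested had such a p. At 2 h there were 0, beside 1717 of 12132 genes. The share of all genes called by DESeq2 is not given here. Without the crossed pair the sign turned for Gnmt, Mat1a and Mat2a at 96 h (0.84, 0.19 and 0.002). It also turned for Phgdh, Psat1, Shmt1 and Mthfd2 at 4 h. The share of all genes below vehicle is not given here. Their median log2 change by hour ran from -0.027 to 0.041 under WT and from -0.077 to 0.006 under PkmΔDRE. Of all genes tested under WT, the percentages called in order of time were 0.0, 0.0, 37.4, 0.0321, 0.373, 0.00763, 0.0, 15.1 and 1.46%. Genes called lower made up 13.6% at 8 h, 5.0% at 96 h and 0.503% at 120 h. Under PkmΔDRE the percentages called were 0.0, 0.0, 0.106, 0.024, 0.016, 0.404, 1.13, 0.0793 and 0.633%.

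**Figure D3:**
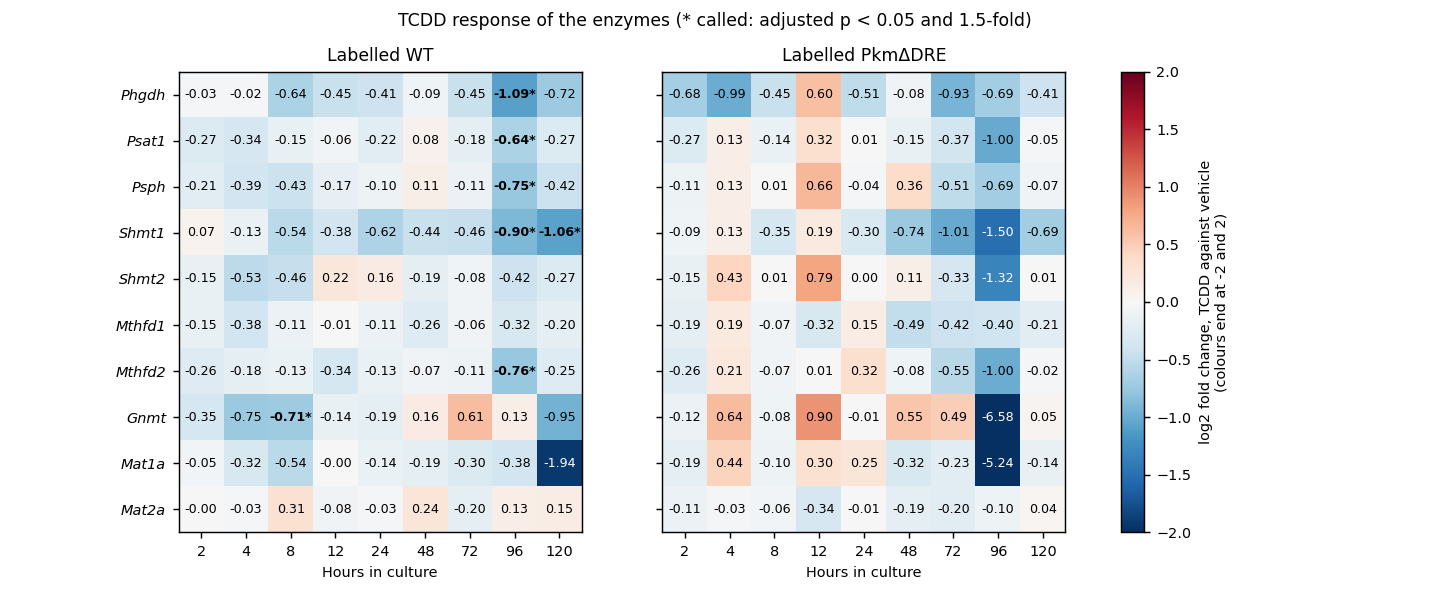
Log2 fold change of TCDD against vehicle for each enzyme (rows) and hour (columns) under the labels WT and PkmΔDRE, from edgeR, with an asterisk where the adjusted p was under 0.05 and the change at least 1.5-fold. The called values sit in the WT panel at 8, 96 and 120 h, and the darkest PkmΔDRE cells, Gnmt at -6.58 and Mat1a at -5.24, belong to 96 h, the labelled hour of 1 library of the crossed pair.

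At 96 h under the label WT all 3 enzymes of serine synthesis were lower with TCDD. Phgdh was at 84.8, 96.8, 103.8 and 104.9 CPM in vehicle and at 34.8, 45.9, 47.2 and 48.2 CPM with TCDD. The groups did not overlap, and Phgdh fell by 1.09 ± 0.11 on the log2 scale (adjusted p = 0.00019). Psat1 was at 111.6, 126.4, 136.9 and 142.1 CPM in vehicle and at 73.5, 78.4, 82.5 and 84.9 CPM with TCDD. It fell by 0.64 ± 0.08 (adjusted p = 0.00056), just past the 1.5-fold limit. Psph was at 36.6, 36.7, 37.8 and 46.04 CPM in vehicle and at 20.2, 20.8, 23.7 and 24.7 CPM with TCDD, again without overlap. It fell by 0.75 ± 0.11 (adjusted p = 0.00079).

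Of the folate enzymes at this hour, Shmt1 and Mthfd2 were called. Shmt1 was at 21.8, 25.4, 33.5 and 37.7 CPM in vehicle and at 13.5, 14.1, 16.01 and 17.3 CPM with TCDD. It fell by 0.90 ± 0.16 (adjusted p = 0.0022). Mthfd2 was at 28.9, 31.2, 38.7 and 42.1 CPM in vehicle and at 17.97, 20.2, 20.3 and 21.1 CPM with TCDD, and fell by 0.76 ± 0.12 (adjusted p = 0.0012). In each of these 5 genes every TCDD library was below every vehicle library. The share of all genes whose groups did not overlap is not given here. By edgeR, 6109 of 13793 genes tested at this hour had an unadjusted p under 0.05. Shmt2, at -0.42 ± 0.12, passed the p threshold (adjusted p = 0.020) but not 1.5-fold, and Mthfd1 was at -0.32 ± 0.13 (adjusted p = 0.082). Gnmt, Mat1a and Mat2a were at 0.13 ± 0.46, -0.38 ± 0.16 and 0.13 ± 0.08, and none was called. The median log2 fold change of the 10 enzymes was -0.53, beside 0.015 over all genes tested.

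The 5 calls at 96 h remained with any 1 of the 8 libraries left out. Without WT vehicle replicate 3 and TCDD replicate 1, 4 remained, since Psat1, at -0.57, was then under 1.5-fold. In 1 fit of all libraries of the label Shmt1 alone of the 5 was called, and with a surrogate variable in that fit none was, the values then running from -0.82 to -0.41. Several measures moved with treatment in these 8 libraries. The share of read pairs on lines that name no gene was 19.8% to 24.2% in vehicle and 22.1% to 29.04% with TCDD, and with it as a covariate Phgdh and Psph were still called while Psat1, Shmt1 and Mthfd2 were not. The summed level of 5 cholangiocyte markers (Krt19, Krt7, Epcam, Sox9 and Spp1) was 609 to 1330.0 CPM in vehicle and 372 to 781 CPM with TCDD, with 2 of the 5 called lower and none at 0. That of 6 endothelial markers was 71.5 to 81.2 CPM and 44 to 62.5 CPM, with 3 of 5 tested called lower. That of 8 hepatocyte markers was 7620 to 14500 CPM and 13900 to 16100 CPM, with 2 called higher and 2 lower. Of 7 macrophage markers 1 was called lower (40 to 60.8 and 32.7 to 45 CPM), of 4 proliferation markers 1, and of 8 stellate and fibroblast markers 0. Their part in the enzyme values was not tested, and in bulk samples fewer cells of a type and less RNA per cell cannot be told apart.

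**Figure D4:**
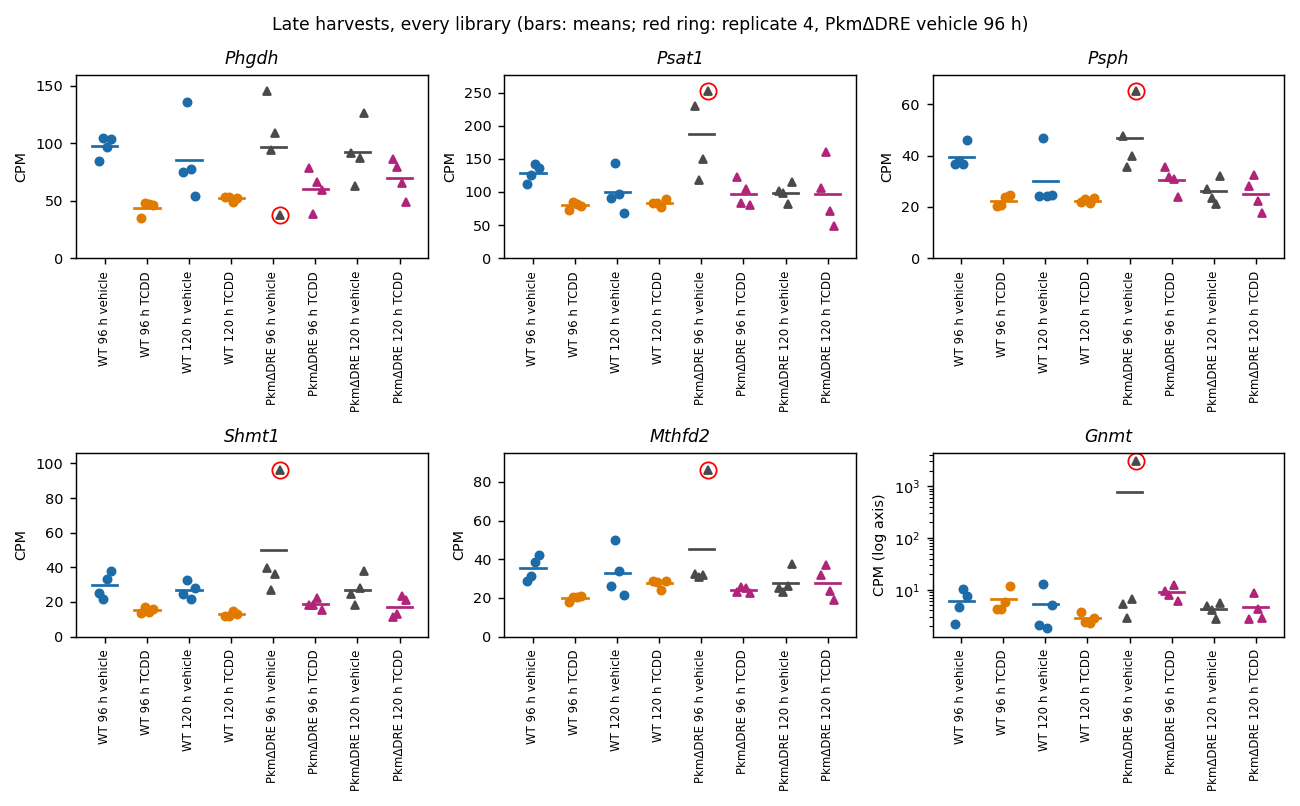
CPM of 6 enzymes in every library at 96 and 120 h, by genotype label and treatment, with group means as bars (Gnmt on a log axis) and replicate 4 of PkmΔDRE vehicle at 96 h ringed in red. In the WT libraries at 96 h the TCDD points of Phgdh, Psat1, Psph, Shmt1 and Mthfd2 lie below all vehicle points, and the ringed library is the highest PkmΔDRE vehicle point of all but Phgdh.

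Shmt1 was the enzyme that was also called at 120 h under WT. It was at 21.95, 24.6, 28.02 and 32.5 CPM in vehicle and at 11.6, 11.9, 13.2 and 14.5 CPM with TCDD. The groups did not overlap, and it fell by 1.06 ± 0.15 (adjusted p = 0.0080), a call that remained with any 1 library left out. The sum of the 5 cholangiocyte markers did not overlap either, at 581 to 1070.0 CPM in vehicle and 317 to 532 CPM with TCDD, with 0 of 5 called and none at 0, and its part in the Shmt1 value was not tested. The other enzymes at 120 h lay between -1.94 and 0.15. The lowest of them was Mat1a at -1.94 ± 0.68 (adjusted p = 0.21), where vehicle replicate 2 was at 47.8 CPM. Phgdh was at 53.8, 74.7, 77.6 and 135.8 CPM in vehicle and at 49.02, 52.8, 53.1 and 53.2 CPM with TCDD (log2 -0.72 ± 0.25, adjusted p = 0.19).

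At 8 h under WT, where 37.4% of all genes tested were called and 13.6% were called lower, Gnmt was the single enzyme called. It was at 948, 1021, 1951 and 2092 CPM in vehicle and at 672, 967, 995 and 1125 CPM with TCDD, so the groups overlapped and the vehicle libraries lay in 2 pairs. It fell by 0.71 ± 0.27 (adjusted p = 0.043), a call that was lost in 5 of the 8 fits with 1 library left out, in 1 fit of all libraries of the label, with the share outside genes as a covariate and with a GC trend removed (-0.085), and with a surrogate variable the value was 0.064. The higher pair were replicates 1 and 2, which were also the higher pair for Shmt2 (401 and 401 CPM, against 214 and 220 CPM) and Mthfd2 (125.6 and 112.5 CPM, against 51.5 and 43.2 CPM). These replicates also had more unmapped read pairs than replicates 3 and 4, 13.4% to 13.5% against 8.97% to 9.18% in vehicle and 10.4% to 23.6% against 7.32% to 9.73% with TCDD, as in all 8 WT groups from 2 to 12 h. Within replicates 1 and 2 Gnmt was at 1951 to 2092 CPM in vehicle and 995 to 1125 CPM with TCDD, and within replicates 3 and 4 at 948 to 1021 and 672 to 967 CPM, without overlap in either. With a term for this split, chosen after seeing the data, Gnmt was at -0.63 ± 0.15 (adjusted p = 0.0030) and Phgdh, at -0.63 ± 0.23 (adjusted p = 0.034), was called too. Of all genes tested, 5104 were called with this term and 4640 without it. Mat1a was at 1428 to 1615 CPM in vehicle and 945 to 1175 CPM with TCDD without overlap. Its difference of -0.54 ± 0.13 passed the p threshold (adjusted p = 0.0063) and was under 1.5-fold. Shmt1 at this hour was likewise at -0.54 ± 0.17 (adjusted p = 0.020). In the same libraries the hepatocyte markers summed to 72900 to 86700 CPM in vehicle and 64200 to 71600 CPM with TCDD, with 2 called higher and 3 lower of 8. The macrophage markers summed to 160 to 198 CPM in vehicle and to less in every TCDD library (lowest 63.3 CPM), with 4 of 7 called lower, and no marker of these lists was at 0 in a whole group. TCDD replicate 1 had 48.0% of its pairs on no gene, the highest share of all libraries. The part of these measures in the enzyme values was not tested.

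Under the label PkmΔDRE the values nearest to a call came at 72 h. Shmt1 was at 22.01, 33.7, 36.1 and 36.8 CPM in vehicle and at 15.01, 15.5, 15.9 and 19.04 CPM with TCDD, without overlap (log2 -1.01 ± 0.22, adjusted p = 0.054). Phgdh was at 81.3, 121.4, 121.7 and 136.9 CPM in vehicle and at 50.1, 54.9, 69.8 and 73.7 CPM with TCDD, also without overlap (log2 -0.93 ± 0.22, adjusted p = 0.073). The lowest vehicle value of both genes was that of replicate 1, the library nearest to 120 h. Without it Shmt1 was at -1.14 ± 0.17 (adjusted p = 0.0039), Phgdh at -1.05 ± 0.17 (adjusted p = 0.0072) and Psph at -0.61 ± 0.18 (adjusted p = 0.040), and all 3 were called. None of the 3 was called in the other 7 fits with 1 library left out. Of all genes tested, 1.13% were called at this hour with every library kept. The share without replicate 1 is not given here, so the 3 calls have no background beside them. The 5 cholangiocyte markers summed to 941 to 1050.0 CPM in vehicle and 407 to 706 CPM with TCDD at this hour, without overlap, with 1 of 5 called lower and none at 0, and their part in these values was not tested. The share of read pairs on lines that name no gene was 19.4% to 24.8% in vehicle and 18.2% to 20.6% with TCDD at 72 h. At 48 h Shmt1 was at -0.74 ± 0.23 (adjusted p = 0.37). Its 8 fits with 1 library left out ran from -0.92 to -0.61, and it was called in 1 of them, that without vehicle replicate 2. That library did not stand apart in hour, Cyp1a1 or strand. It had the lowest Shmt1 of its group (32.4 CPM) and 26.5% of its pairs on no gene, against 19.8% to 22.6% in the others. With TCDD this share was 18.4% to 19.4% at 48 h, below every vehicle library. The share of all genes called without replicate 2 is not given here.

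The PkmΔDRE comparison at 96 h depended on vehicle replicate 4, of the crossed pair. With it, Gnmt was at -6.58 ± 2.35 and Mat1a at -5.24 ± 1.90 (adjusted p = 0.64 for both). Without it they were at 0.84 ± 0.32 and 0.19 ± 0.37 (adjusted p = 0.29 and 0.93), so that the sign turned. Shmt1 was at -1.50 ± 0.42 (adjusted p = 0.52) with the library and at -0.92 ± 0.19 (adjusted p = 0.028) without it, where it was the single enzyme called beside 2.25% of all genes. Phgdh without it was at -0.98 ± 0.23 (adjusted p = 0.053) and Psat1 at -0.80 ± 0.22 (adjusted p = 0.10).

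A difference of the TCDD response between labels was sought by an interaction term at each hour. By edgeR 0 of 90 gene-hour pairs passed, with 4 at an unadjusted p under 0.05 and 0 by DESeq2. The 4 were 1 at 4 h, 2 at 96 h and 1 at 120 h. There 1186 of 13214, 1930 of 14771 and 482 of 15324 genes tested had such a p. At 8 h it was 0 of the enzymes, beside 2114 of 13333 genes. Of all genes 0.00715% passed at 48 h, 0.00695% at 72 h and 0.0% at every other hour. Values are PkmΔDRE minus WT, by the labels, which Pkm went against. At 96 h the difference was 0.38 ± 0.40 for Phgdh, -0.38 ± 0.30 for Psat1, 0.05 ± 0.27 for Psph and -0.61 ± 0.45 for Shmt1. Without vehicle replicate 4 these were 0.07 ± 0.26, -0.21 ± 0.24, 0.24 ± 0.20 and -0.06 ± 0.25. The calls of the serine enzymes under WT and their absence under PkmΔDRE are therefore not shown to differ. At 96 h the share of read pairs on no gene was lower in every TCDD library under PkmΔDRE, while under WT it ranged higher with TCDD. For Gnmt at 96 h the difference was -6.71 ± 2.32 (adjusted p = 0.27), and 0.67 ± 0.61 without vehicle replicate 4.

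Other genes of these pathways gave the setting in 7 lists of 75 genes, of which 72 or 73 were tested. At 120 h against 2 h in vehicle, 39 were called lower and 15 higher under WT, and 40 and 16 under PkmΔDRE. Their median log2 change was -1.04 and -1.21, beside 0.213 and 0.241 over all genes. Of these, 51 were called in the same direction under both labels, 38 lower and 13 higher. Choline and dimethylglycine oxidation fell whole, with 5 of 5 lower under both labels, among them Dmgdh (log2 -5.25 and -6.12) and Sardh (-5.42 and -5.95), the mitochondrial dehydrogenases that oxidise dimethylglycine and sarcosine, the product of GNMT. Of the other methionine cycle genes 7 of 12 were lower under each label, and 2 were higher under WT and 3 under PkmΔDRE. Bhmt, which remethylates homocysteine with betaine, was at -5.24 and -6.29, Bhmt2, its relative, at -4.23 and -4.66, and Pemt, which makes phosphatidylcholine with S-adenosylmethionine, at -6.42 and -7.05.

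Of 9 serine and glycine genes tested, 6 were lower and 1 higher under WT and 7 lower under PkmΔDRE. Agxt, the peroxisomal enzyme that makes glycine from glyoxylate, had the largest mean change of the lists, at -9.29 under WT and -10.76 under PkmΔDRE. Sds, which breaks serine down to pyruvate, was at -7.10 and -7.27. In transsulfuration, which carries homocysteine sulfur to cysteine and had 4 of 7 lower and 1 higher under both labels, Cbs was at -4.20 and -3.88, Cth at -4.02 and -4.89, and Cdo1, which oxidises cysteine, at -4.57 and -5.44. The folate genes were mixed, with 8 of 17 lower and 5 higher under WT and 8 lower and 4 higher under PkmΔDRE. Aldh1l1, which oxidises formyl-tetrahydrofolate, was at -4.18 and -4.06, and Ftcd, which links histidine breakdown to folate, at -3.65 and -4.47. In the amino acid response list, 5 were lower and 3 higher under WT and 4 lower and 4 higher under PkmΔDRE of 13 tested. Of 10 genes of methionine salvage and polyamine synthesis, 4 were lower and 3 higher under WT and 5 lower and 4 higher under PkmΔDRE.

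With TCDD the same lists held 24 calls of 73 genes tested under WT at 8 h (11 higher, 13 lower) and 14 of 73 at 96 h (6 higher, 8 lower), shares that lay below the 37.4% of all genes called at 8 h and near the 15.1% called at 96 h. There was 1 call at 24 h and 1 at 120 h, both higher. Under PkmΔDRE there were 2 calls, 1 higher at 48 h and 1 lower at 72 h. At 96 h under WT 4 of 13 amino acid response genes were lower and 1 higher, with a list median of -0.39 beside 0.015 over all genes. That exception was Vldlr, the very low density lipoprotein receptor, which was called higher in 5 comparisons. Under WT it rose by 1.77 ± 0.30 (8 h), 2.30 ± 0.39 (24 h), 1.49 ± 0.15 (96 h) and 1.31 ± 0.14 (120 h), and by 2.78 ± 0.33 at 48 h under PkmΔDRE (adjusted p = 0.0014, 0.039, 0.00017, 0.0019 and 0.0045). Nnmt, which spends S-adenosylmethionine on nicotinamide, was lower in 3 comparisons, by 0.75 ± 0.21 at 8 h and 1.45 ± 0.16 at 96 h under WT and by 1.61 ± 0.26 at 72 h under PkmΔDRE (adjusted p = 0.013, 0.00025 and 0.011). Dld, a subunit of the glycine cleavage system, was higher under WT by 1.28 ± 0.27 at 8 h and 0.63 ± 0.13 at 96 h (adjusted p = 0.0029 and 0.0043).

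Between libraries of the same group the enzymes varied together in sets. Deviations of log2 (CPM + 0.5) from the group mean were correlated for all 45 pairs over all libraries, with a permutation test of the libraries within groups (two-sided, adjusted over the 45 pairs). Psat1 varied with Mthfd2 (r = 0.807, rho = 0.779) and with Psph (r = 0.767, rho = 0.735). Shmt2 varied with Gnmt (r = 0.748, rho = 0.820), and Shmt1 with Mthfd1 (r = 0.620, rho = 0.540). Each of these had p = 1e-05, the smallest that 100000 permutations can give (adjusted p = 2.65e-05 for r and 2.5e-05 for rho). The permutation treats the libraries of a group as exchangeable. Yet in all 8 WT groups from 2 to 12 h, replicates 1 and 2 had more unmapped pairs than the others. Under PkmΔDRE at 12 and 48 h, replicate 2 was lowest for Phgdh, Psph, Shmt2 and Mthfd2, both in vehicle and with TCDD. At 24 h this did not hold. Libraries that share a mouse or an isolation would not give independent deviations, and no label states which do. The part of these patterns in the correlations was not tested. With the 2 libraries farthest from the median left out, r was 0.795, 0.740, 0.734 and 0.625.

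The strongest pair in all libraries, Gnmt and Mat1a (r = 0.901, rho = 0.656, p = 1e-05, adjusted p = 2.65e-05), rested in part on the crossed pair. It stood at 0.782 without its 2 farthest libraries and at 0.611 without the 7 libraries that stood apart in hour, Cyp1a1 or strand (the one nearest to 120 h kept in). Phgdh with Psat1 went the other way, from 0.604 to 0.794 (p = 1e-05, adjusted p = 2.65e-05; rho = 0.660; 0.666 without its 2 farthest libraries). Mat2a varied little with the others, its r lying between -0.292 and 0.151. The lowest, with Phgdh, passed the test (rho = -0.301, p = 0.0014 for r and 0.0015 for rho, adjusted p = 0.0026 for both), and r was -0.240 without its 2 farthest libraries. The share of read pairs on no gene had an r within groups from -0.508 for Shmt2 to -0.0326 for Mat2a. With that share removed from both genes of a pair, r was 0.780 for Psat1 and Mthfd2, 0.731 for Psat1 and Psph, 0.711 for Shmt2 and Gnmt and 0.551 for Shmt1 and Mthfd1. No label gives an isolation or sequencing batch, so no value within labelled batches could be had.

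**Figure D5:**
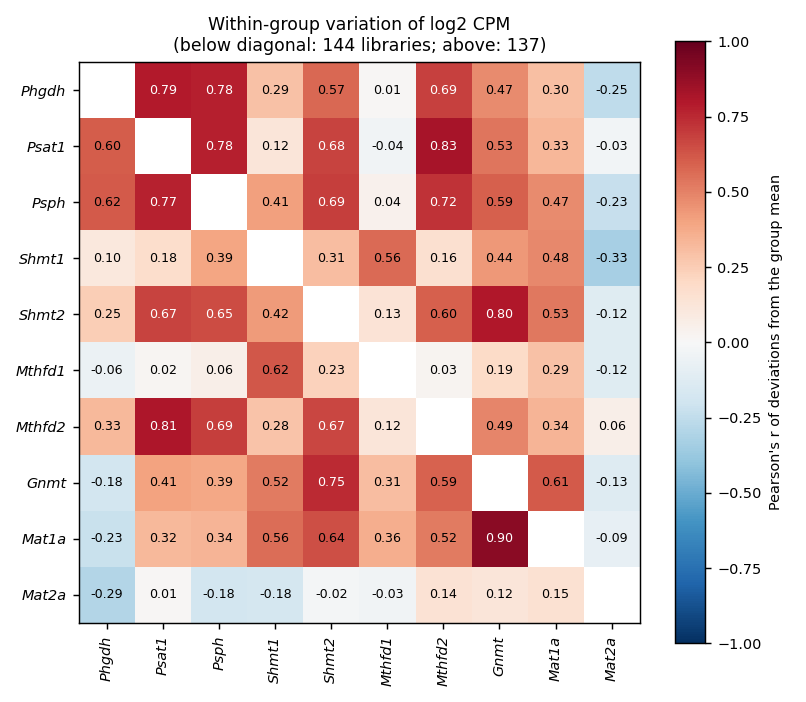
Pearson's r between the enzymes for deviations of log2 (CPM + 0.5) from the group mean, over all libraries below the diagonal and without 7 libraries that stood apart above it. A block of Phgdh, Psat1, Psph, Shmt2 and Mthfd2 has r from 0.575 to 0.828 above the diagonal, and the Mat2a row and column are near or below 0.

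Over the 36 group means of log2 (CPM + 0.5) the patterns of single genes came close to those of the enzymes. These correlations are descriptions over groups that share the course of time. Gnmt was most like Hpd (r = 0.998), Rdh16f2 (0.997) and Cyp2d26 (0.995), and Mat1a most like Azgp1 and Aadac (0.995 each) and Retsat (0.992). Phgdh was most like Ripor1 (0.961), Impdh1 (0.956) and Cd63 (0.954). Shmt2 was most like Nfkbib (0.985), Sh3bp2 (0.979) and Apoc1 (0.978), and Mthfd2 most like Axin1 (0.930), Zmynd19 (0.929) and Ddx31 (0.928). Shmt1 was most like Amacr (0.945), Got1 (0.943) and Mthfd1 (0.941), while Mthfd1 was most like Sertad1 (0.949), Shmt1 (0.941) and Psen2 (0.935). Lower values were found for Psph, with Ranbp3 (0.917), Get4 (0.913) and Hsf1 (0.908), Psat1, with Rnf126 (0.880) and Nxt1 (0.869), and Mat2a, with Gfm1 (0.865), Dnajb11 (0.837) and Slc25a13 (0.834).

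The labelled cell type was checked on marker genes. In WT vehicle libraries 8 hepatocyte markers summed to 121000 to 163000 CPM at 2 h and 3500 to 17400 CPM at 120 h, and none was at 0 in a whole group. Over the same span the median sum of 5 cholangiocyte markers went from 86.7 to 783 CPM, that of 6 endothelial markers from 349 to 76.4 CPM, and that of 7 macrophage markers from 201 to 39.3 CPM. That of 8 stellate and fibroblast markers went from 11.4 CPM, with Acta2 at 0, to 92.7 CPM, and that of 4 proliferation markers from 1.51 CPM, with Top2a at 0, to 25.4 CPM. The 3 lymphocyte markers summed to at most 1.69 CPM, with Cd3e at 0 at both hours. The part of these shifts in the courses of the enzymes was not tested.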

How the data were processed

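The authors trimmed reads with Trimmomatic 0.39, checked them with FastQC 0.11.3 and aligned them with STAR 2.7 to GRCm39, and deposited whole-number counts of read pairs per gene for each library, per the labels and the file headers. The unstranded column was used, so reads of overlapping genes on opposite strands cannot be told apart. Lines that name no gene held 16.8% to 48.0% of the read pairs and were left out. Gene symbols, exon lengths and lists were matched through GENCODE M21 (GRCm38). CPM used library totals over genes, scaled by TMM factors set over all libraries except in the check of hours. Library depth was 13588848 to 30719161 read pairs on genes.

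The members and lists were chosen with earlier results of these data known. Within each label and hour, TCDD was compared with vehicle (4 libraries each) by the quasi-likelihood test of edgeR 4.0.16 (R 4.3.3) with TMM scaling, its expression filter (count minimum 10, total 15) and Benjamini-Hochberg adjustment over all genes tested. A call needed adjusted p under 0.05 and at least 1.5-fold. The label difference was the interaction over 16 libraries. Time used the 36 vehicle libraries of a label. Standard errors are the log2 fold change over the root of F. Alternatives were RLE scaling, no filter, no fold limit, DESeq2 1.42.0, 1 joint fit (of all libraries of a label, or of both labels for the interaction), 1 surrogate variable (sva 3.50.0), a covariate, a GC trend, doubted libraries and each library left out. Leaving out the pair whose hours look crossed, and a term for the 2 libraries of each WT group with more unmapped pairs (2 to 12 h), were chosen after seeing the data. The scripts were tested on simulated data. Named pathway genes were those called at the most label-hour pairs with TCDD (at least 2), and the 12 with the largest mean change at 120 h called under both labels. Genes of like pattern were the 3 with the highest r per enzyme, of which 1 is not reported here. No library duplicated another. Labels and protocol differ on the plate (12-well with 500000 cells, or a 6-well plate).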

Additional observations from a re-analysis of the deposited data

Results flagged for a closer look

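In 31 of 360 combinations of an enzyme and a group of 4 libraries, 1 library lay far from the other 3 by Dixon's criterion at the 95% level, where chance gives about 5% of groups. In Phgdh such libraries were at 9.74 CPM (WT TCDD 2 h, replicate 4), 34.80 CPM (WT TCDD 96 h, replicate 1), 49.02 CPM (WT TCDD 120 h, replicate 3) and 132.8 CPM (PkmΔDRE vehicle 4 h, replicate 4). For Psat1 it was at 289.7 CPM (WT vehicle 4 h, replicate 4). In Psph such libraries were at 46.04 CPM (WT vehicle 96 h, replicate 4), 46.67 CPM (WT vehicle 120 h, replicate 2), 58.90 CPM (PkmΔDRE vehicle 4 h, replicate 3) and 29.64 CPM (PkmΔDRE vehicle 72 h, replicate 1). For Shmt1 such libraries were at 126.998 CPM (WT vehicle 2 h, replicate 3) and 43.92 CPM (WT TCDD 12 h, replicate 2). In Shmt2 such libraries were at 379.1 CPM (WT vehicle 72 h, replicate 3), 298.8 CPM (WT TCDD 4 h, replicate 2), 219.5 CPM (WT TCDD 24 h, replicate 4), 54.51 CPM (PkmΔDRE vehicle 72 h, replicate 1) and 460.9 CPM (PkmΔDRE vehicle 96 h, replicate 4). For Mthfd1 it was at 81.91 CPM (PkmΔDRE vehicle 8 h, replicate 4). In Mthfd2 such libraries were at 102.8 CPM (WT TCDD 4 h, replicate 4), 24.24 CPM (WT TCDD 120 h, replicate 3), 86.37 CPM (PkmΔDRE vehicle 96 h, replicate 4) and 38.71 CPM (PkmΔDRE TCDD 2 h, replicate 3). For Gnmt such libraries were at 9.35 CPM (WT vehicle 72 h, replicate 3), 2239.7 CPM (PkmΔDRE vehicle 8 h, replicate 4) and 3034 CPM (PkmΔDRE vehicle 96 h, replicate 4). In Mat1a such libraries were at 97.68 CPM (WT vehicle 24 h, replicate 3), 47.82 CPM (WT vehicle 120 h, replicate 2), 1722 CPM (WT TCDD 4 h, replicate 1), 28.95 CPM (WT TCDD 72 h, replicate 2), 2311 CPM (PkmΔDRE vehicle 96 h, replicate 4) and 6.07 CPM (PkmΔDRE TCDD 96 h, replicate 4). For Mat2a it was at 322.9 CPM (WT TCDD 8 h, replicate 3).

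Replicate 4 of PkmΔDRE vehicle at 96 h, of the pair whose hours look crossed, accounted for 4 of the 31, and its counterpart at 4 h for 1. The causes were not tested.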

How the results depend on the processing

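Counts of enzyme-hour pairs called with TCDD under the label WT were 7, and 3 with the covariate, 4 in 1 joint fit of the label's libraries and 2 with a surrogate variable in that fit. With 1 library left out they ran from 6 to 10, and with a term for the split in unmapped pairs they were 8. Under PkmΔDRE the count was 0, and 2 with the covariate, 2 with DESeq2, 2 without the filter, 1 with the GC trend removed, 3 in 1 joint fit, 5 with a surrogate variable and 1 without the crossed pair. With 1 library left out it ran from 0 to 3, the 3 without vehicle replicate 1 at 72 h. The label difference was 0, and 2 in 1 joint fit of both labels. Gnmt under WT at 8 h turned to 0.064 with a surrogate variable. The time counts stayed within 1.5 times, from 26 to 29 of 40 under WT and 23 to 30 under PkmΔDRE. Counts over all genes moved more: at 96 h, 2085 were called under WT and far fewer in 1 joint fit, where 54.2% of the calls were higher against 66.9%, and under PkmΔDRE 11, all higher, 321 without the crossed pair, 509 in 1 joint fit (17.9% higher) and 702 with a surrogate variable (17.5% higher). At 8 h under WT 4640 were called (63.6% higher), and 220 with a surrogate variable (23.2% higher). With DESeq2 the median of all genes at 8 h under WT was 0.434 and with edgeR without the filter 0.468, against 0.004. With RLE scaling and the filter kept it was -0.019. The cause was not tested in these cases. No paired analysis was possible because the labels give no replicate numbers and replicate numbers here only follow accession order. Enzymes at a few CPM (Gnmt and Mat1a late in culture, Phgdh at 2 h) rest on few read pairs, which limits their precision.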
